A study of Mus musculus with 11 samples.

Results

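Astrocyte genes were followed through a pulldown of microglial RNA from the mouse spinal cord. The set is 33 mouse genes that mark astrocytes, with solute carriers left out, and its members were the rows of the count table whose Ensembl identifier maps to a listed symbol. All 33 were found among the 39017 genes of the table, and 32 of them passed the filter on low counts that left 16025 genes to test. The exception was Chrdl1, a secreted inhibitor of bone morphogenetic proteins. It had 0 counts in 4 libraries and at most 42 in any.

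The conditional knockout (cKO) group was 5 spinal cord samples (cKO2, cKO4, cKO5, cKO6 and cKO7) in which Kdm6a, an X-linked histone H3K27 demethylase gene, was deleted in microglia. The wild-type (WT) group was 6 samples (WT8, WT9, WT13, WT15, WT16 and WT17). All 11 came from healthy female C57BL/6 mice that carried Tmem119-CreERT2, a tamoxifen-dependent Cre recombinase driven by a microglial gene, together with RiboTag. RiboTag is an allele in which Cre switches on an epitope tag on a ribosomal protein, so that ribosomes of the chosen cell type are pulled down with the RNA bound to them. The same Cre deleted Kdm6a in the cKO, so tagging and deletion shared 1 driver. The sources used here give no age, tamoxifen dose or number of animals per sample, so each p-value rests on the spread between samples that may or may not be separate animals. RNA of whole spinal cord was not analysed here, so the levels below are those of the pulldown alone. In it the number of astrocytes and the RNA per astrocyte cannot be told apart. Nor can these be told apart from the amount of RNA carried over, the microglial share of a library, or expression by the tagged cells.

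Astrocytes are the glial cells that take up glutamate and potassium around synapses, supply metabolites to neurons, and wrap blood vessels with end feet rich in water channels. They are joined into networks by gap junctions, and they answer injury by building intermediate filaments of glial fibrillary acidic protein. A ribosome tag limited to microglia is meant to leave their RNA behind.

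Total counts per library ran from 28620584 to 40943004. The microglial markers were high throughout: 16 listed genes summed to between 64088 and 67016 CPM (counts per library total, adjusted by TMM factors and scaled) in cKO libraries and between 46268 and 60866 CPM in WT libraries. Kdm6a had 3.80 to 7.73 CPM in cKO and 7.24 to 12.03 CPM in WT, which overlap, and its log2 fold change of -0.61 (SE 0.25) did not pass the threshold (edgeR adjusted p = 0.193). The deleted exons are not named in the labels, and its counts cover the whole gene. A total of 17296 genes were at 0 in every library, among them the microglial marker Aif1 and the endothelial marker Cldn5, and these are read as not measured. The libraries WT13 and WT17 stood apart from the rest in the markers of several other cell types. WT16 came after them in the summed neuronal markers, at 2298 CPM. Results are given with all 6 WT libraries and without WT13, WT16 and WT17. The libraries left out were not chosen independently of these data. Leaving out WT13 and WT17, in which many members were high, raises those members' log2 fold changes by construction. Fewer WT libraries also give less power to pass genes, so that comparison is a description.

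The members differed widely in level per length. Glul, glutamine synthetase, which turns glutamate into glutamine and is also known from oligodendrocytes and macrophages, was the highest at a mean of 1178 CPM per kb of merged exons over the 11 libraries. It was followed by Atp1b2, a beta subunit of the sodium pump, at 124 CPM per kb, and by the calcium-binding protein S100b at 120.1 CPM per kb. Gfap, the filament protein, had 90.2 CPM per kb and Aldoc, a glycolytic aldolase of the brain, 57.0 CPM per kb. On the same scale the microglial receptor gene Csf1r averaged 1548 CPM per kb, the myelin gene Mbp 383 CPM per kb and the axonal neurofilament gene Nefh 128 CPM per kb. The nuclear factor Sox9 averaged 1.37 CPM per kb and the folate enzyme Aldh1l1, often taken as the general astrocyte marker, 1.18 CPM per kb. Chrdl1 was lowest at 0.0501 CPM per kb. Apart from Chrdl1, every member had counts in every library.

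**Figure D1:**
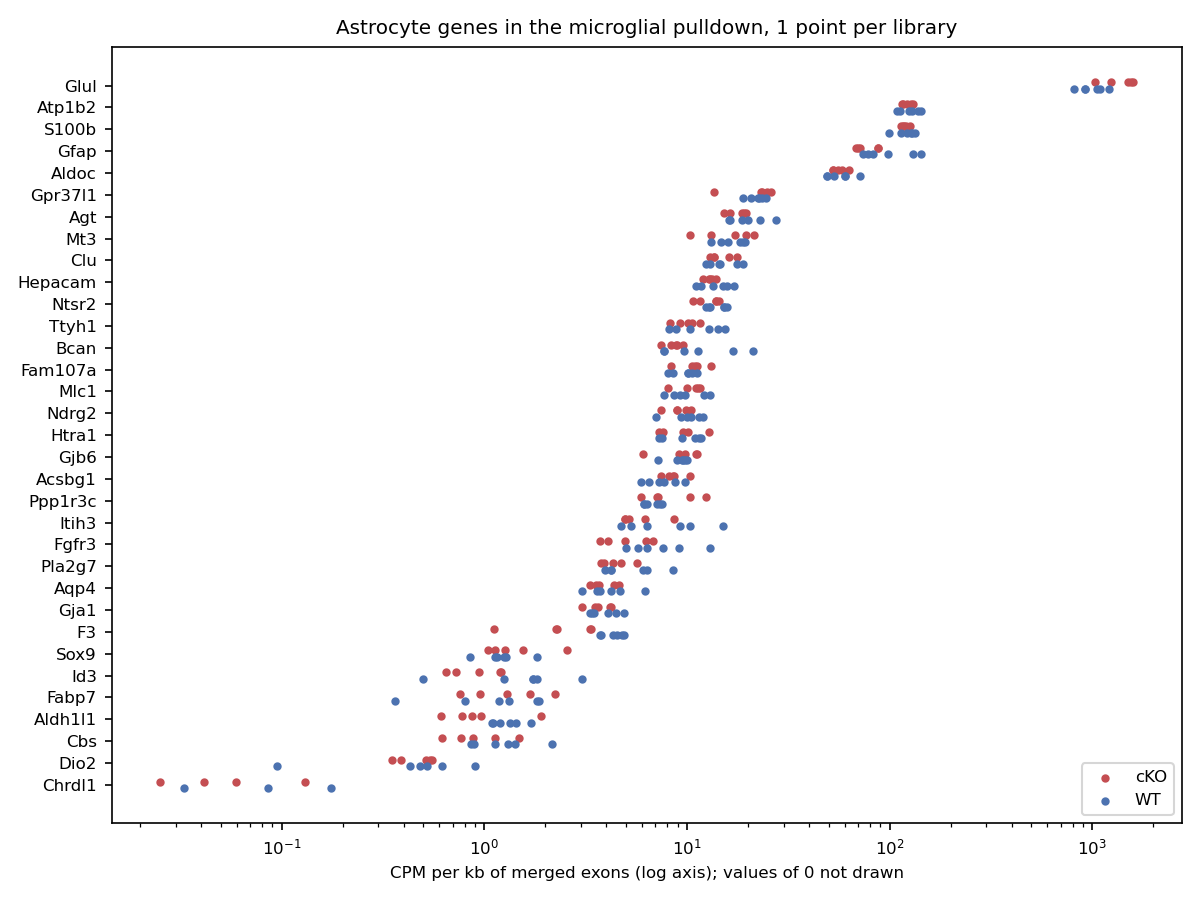
Level of each of the 33 genes in CPM per kb of merged exons (log axis), 1 point per library, with cKO points in red drawn above WT points in blue. Glul lies apart from the others, at 809 to 1596 CPM per kb, and the values of 0 of Chrdl1 are not drawn.

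Sequences are shown for the starts of 4 members on which the results below turn: Glul, which passed the threshold; F3, whose genotypes did not overlap; and Gfap and Bcan, which were high in the same WT libraries. Each is the 250 bases before the start of the gene in RefSeq (build GRCm38.p6), 5′ to 3′ on the gene's strand, with the motif CCAAT in capitals. They lie at chr1:153899679-153899928 for Glul (plus strand), chr3:121723287-121723536 for F3 (plus strand), chr11:102897201-102897450 for Gfap (minus strand) and chr3:88000357-88000606 for Bcan (minus strand). The Gfap window lies inside the GENCODE span of the gene used here for exon length (102887336 to 102900912). That span begins further upstream than the RefSeq start. The windows of Glul, F3 and Bcan lie outside their GENCODE spans.
Glul: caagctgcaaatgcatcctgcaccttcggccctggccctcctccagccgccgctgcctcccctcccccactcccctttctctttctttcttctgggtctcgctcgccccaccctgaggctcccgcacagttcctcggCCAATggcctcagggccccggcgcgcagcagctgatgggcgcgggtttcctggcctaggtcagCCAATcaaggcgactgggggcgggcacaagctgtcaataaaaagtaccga
F3: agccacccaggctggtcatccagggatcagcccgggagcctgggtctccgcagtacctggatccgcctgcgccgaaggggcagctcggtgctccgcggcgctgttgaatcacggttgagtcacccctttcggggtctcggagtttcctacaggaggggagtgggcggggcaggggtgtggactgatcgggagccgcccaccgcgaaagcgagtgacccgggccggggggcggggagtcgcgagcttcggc
Gfap: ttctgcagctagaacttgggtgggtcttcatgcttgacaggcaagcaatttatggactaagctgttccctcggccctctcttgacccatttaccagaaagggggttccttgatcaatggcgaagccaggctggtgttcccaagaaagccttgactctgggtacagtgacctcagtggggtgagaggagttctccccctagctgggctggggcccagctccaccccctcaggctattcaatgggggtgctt
Bcan: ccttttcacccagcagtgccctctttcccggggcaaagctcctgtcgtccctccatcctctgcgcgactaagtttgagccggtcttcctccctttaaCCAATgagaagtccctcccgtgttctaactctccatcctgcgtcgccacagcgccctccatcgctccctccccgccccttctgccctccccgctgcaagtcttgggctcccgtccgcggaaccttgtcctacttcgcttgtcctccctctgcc
CCAAT, searched on both strands, was in the windows of Glul and Bcan. It was in 12 of the 28 members that had a window (42.9%), against 34.5% of all 27025 windows. TATAAA was in 3 members' windows and in 3504 of all, and TTGGCA in 3 members' windows (10.7%, against 12.5% of all). TTCNNNGAA was in 4 members' windows (14.3%), against 7.18% of all, and the 4 sequences shown held none of these other motifs.

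Between the genotypes 1 of the 32 members tested passed the threshold of an adjusted p under 0.05 in edgeR's quasi-likelihood test, a share of 3.12%, where 4.29% of all 16025 genes did. That member was Glul, higher in cKO, a direction in which 1.86% of all genes passed. No member was lower in cKO past the threshold, where 2.43% of all genes were. The unadjusted p was under 0.05 for 5 members (15.6%, against 18.3% of all genes): Glul, F3, Fgfr3, Gfap and Bcan, the last 4 of them lower in cKO (12.5%, against 10.2% of all genes). Log2 fold changes were negative for 23 members (71.9%) and for 51.6% of all genes. The median was -0.10 over the members and -0.01 over all genes. Without WT13, WT16 and WT17 no member passed in edgeR, where 3.21% of 16409 genes did, 2.21% in the lower direction. The unadjusted p was then under 0.05 for F3 and Acsbg1 (6.25% of members, against 11.5% of all genes), 10 members had a negative log2 fold change (31.2%, against 49.4%), and the median was 0.07 over the members and 0.0044 over all genes. With all 11 libraries DESeq2 passed 2 members, Glul and F3, and limma voom passed Glul. DESeq2 also passed more of all genes than edgeR did, as counted in the last section. No share of all genes is given for DESeq2, and no count over all genes for limma voom. The DESeq2 and limma voom counts, here and for the lists below, therefore have no background share beside them.

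**Figure D2:**
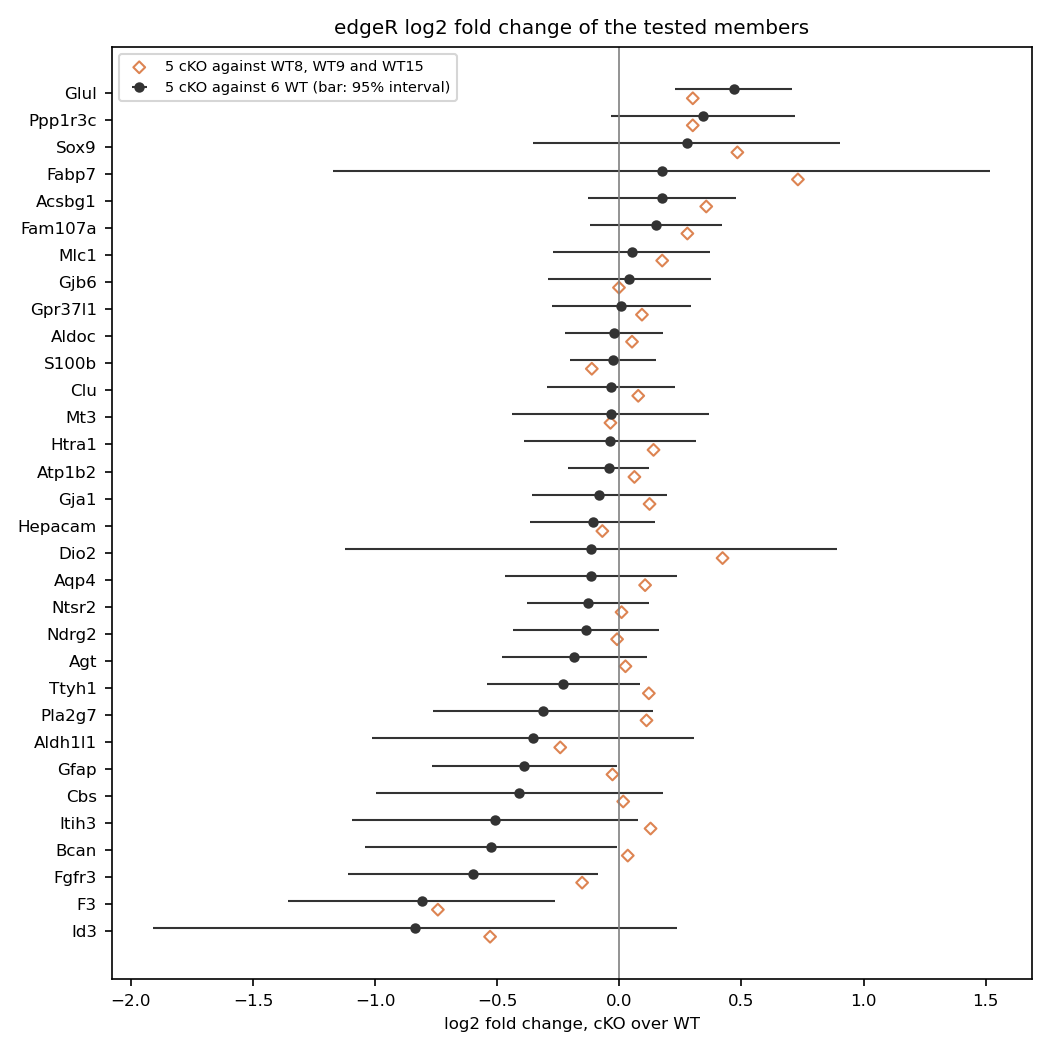
Log2 fold change of cKO over WT for the 32 genes tested, with all 6 WT libraries (filled points, bars are 95% intervals) and against WT8, WT9 and WT15 (open diamonds). The filled points run from -0.84 for Id3 to 0.47 for Glul. The diamonds of 18 genes, among them Gfap, Fgfr3, Bcan and Itih3, lie nearer to 0 than their filled points. Those of the other genes, among them Dio2, Fabp7, Sox9 and Acsbg1, lie further from it.

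The filament gene Gfap (ENSMUSG00000020932, chromosome 11, 102887336 to 102900912, minus strand, mm10) had 288 CPM in cKO2, 296 in cKO4, 302 in cKO5, 371 in cKO6 and 369.8 in cKO7. It had 314 CPM in WT8, 329.7 in WT9, 548 in WT13, 348 in WT15, 412 in WT16 and 606 in WT17. WT13, WT16 and WT17 lay above every cKO library, and WT8, WT9 and WT15 lay within the cKO range. The group values were 325 ± 41.3 CPM in cKO (SD, n = 5) and 426 ± 123 CPM in WT (SD, n = 6). The log2 fold change of -0.39 (SE 0.17, 95% interval -0.77 to -0.01) did not pass (edgeR adjusted p = 0.26). Against WT8, WT9 and WT15 alone it was -0.03 (SE 0.09; edgeR adjusted p = 0.98).

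Of the 5 genes for water, ion and adhesion proteins of the membrane none passed, at log2 fold changes from -0.23 to 0.05. Aqp4, the water channel of the end feet, had 20.7 CPM in cKO2, 28.8 in cKO4, 27.1 in cKO5, 23.0 in cKO6 and 22.2 in cKO7. The WT values were 18.9 CPM in WT8, 26.3 in WT9, 29.1 in WT13, 22.5 in WT15, 23.2 in WT16 and 38.6 in WT17. The genotypes overlapped, with WT17 above all other libraries, and the log2 fold change was -0.12 (SE 0.17; edgeR adjusted p = 0.804). Atp1b2 had 499.98 CPM in cKO2, 469 in cKO4, 475 in cKO5, 533 in cKO6 and 519 in cKO7. In WT it had 460.3 CPM in WT8, 444 in WT9, 561 in WT13, 525 in WT15, 511 in WT16 and 586 in WT17, and the genotypes overlapped. Its log2 fold change was -0.04 with a 95% interval of -0.21 to 0.12, the narrowest interval of any member. Ttyh1, a chloride channel family member, averaged 63.6 ± 8.09 CPM in cKO (SD, n = 5) and 74.5 ± 19.1 CPM in WT (SD, n = 6), with 91.3 CPM in WT13 and 98.7 in WT17. Mlc1, a membrane protein of the end feet that is mutated in a human leukodystrophy, averaged 29.2 ± 4.13 CPM in cKO and 28.2 ± 5.80 in WT. Hepacam, the adhesion molecule that binds it, averaged 43.6 ± 2.23 CPM in cKO and 47.0 ± 7.96 in WT.

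The gap junction genes did not pass either. Gja1, which encodes connexin 43, had 37.5 CPM in cKO2, 43.4 in cKO4, 36.2 in cKO5, 31.2 in cKO6 and 42.6 in cKO7. Against these stood 35.1 CPM in WT8, 35.7 in WT9, 50.05 in WT13, 33.9 in WT15, 41.9 in WT16 and 45.6 in WT17. The genotypes overlapped, at a log2 fold change of -0.08 (SE 0.13; edgeR adjusted p = 0.8299). Gjb6, connexin 30, averaged 25.3 ± 5.57 CPM in cKO (SD, n = 5) and 24.6 ± 2.74 CPM in WT (SD, n = 6). Among the WT libraries it was lowest in WT13, at 19.3 CPM, where Gja1 was highest; Glul and Ppp1r3c were also lowest there.

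Both transcription regulators were low. Sox9, a factor that specifies glia, had 10.6 CPM in cKO2, 6.45 in cKO4, 4.30 in cKO5, 4.68 in cKO6 and 5.22 in cKO7. Its WT levels were 3.51 CPM in WT8, 4.67 in WT9, 4.81 in WT13, 5.20 in WT15, 7.55 in WT16 and 5.27 in WT17. cKO2 lay above all other libraries, and the log2 fold change of 0.28 (SE 0.30; edgeR adjusted p = 0.721) was -0.00011 without it. Id3, an inhibitor of helix-loop-helix factors, had 1.15 CPM in cKO2, 2.13 in cKO4, 2.1696 in cKO5, 1.68 in cKO6 and 1.30 in cKO7. It had 0.891 CPM in WT8, 3.28 in WT9, 5.45 in WT13, 3.12 in WT15, 2.24 in WT16 and 3.11 in WT17. WT8 was the lowest of all libraries and the other 5 WT libraries lay above every cKO library. Its log2 fold change of -0.84 was the most negative among the members, but with an SE of 0.52 it did not pass (edgeR adjusted p = 0.428). Its counts ran from 32 to 238 per library.

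Glul was the largest member by level and the 1 member that passed. Glul (ENSMUSG00000026473, chromosome 1, 153899944 to 153909723, plus strand) had 3449 CPM in cKO2, 4134 in cKO4, 4989 in cKO5, 5173 in cKO6 and 5303 in cKO7. It had 3649 CPM in WT8, 3513 in WT9, 2688 in WT13, 4018 in WT15, 3054 in WT16 and 3075 in WT17. Except for cKO2, every cKO library lay above every WT library, and cKO2 lay below WT8, WT9 and WT15. Glul rose 1.38-fold in cKO (4609.6 ± 793 CPM, n = 5) over WT (3333 ± 482 CPM, n = 6; SD), a log2 fold change of 0.47 (SE 0.11, 95% interval 0.23 to 0.71; edgeR adjusted p = 0.0236). Against WT8, WT9 and WT15 the log2 fold change was 0.30 (SE 0.15) and did not pass (edgeR adjusted p = 0.565), and scaled by library totals alone it was 0.39 (edgeR adjusted p = 0.0641). It also did not pass without cKO5, cKO6, cKO7, WT16 or WT17 (edgeR adjusted p = 0.0709, 0.0776, 0.0639, 0.0597 and 0.0668). WT13, WT16 and WT17, in which Glul was lowest, were also the WT libraries with the lowest sum of microglial markers, at 49022, 51622 and 46268 CPM, and the part of this in the result was not tested. Of the merged exons of Glul, 116 of 3323 bases overlap Teddm2 on the opposite strand. The sources used here do not give the strand setting of the counting.

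The other 9 metabolic genes did not pass. With Glul the group of 10 had 6 negative and 4 positive log2 fold changes (median -0.03), and 2 negative and 8 positive against WT8, WT9 and WT15 (median 0.21). Aldoc had 189.7 CPM in cKO2, 182 in cKO4, 171 in cKO5, 173 in cKO6 and 206 in cKO7. In WT it had 161 CPM in WT8, 197 in WT9, 234 in WT13, 173 in WT15, 161 in WT16 and 198 in WT17. The genotypes overlapped and the log2 fold change was -0.02 (SE 0.10; edgeR adjusted p = 0.947). Ppp1r3c, a subunit that directs a phosphatase to glycogen, had 16.1 CPM in cKO2, 19.6 in cKO4, 33.8 in cKO5, 28.1 in cKO6 and 19.5 in cKO7. In WT it had 17.3 CPM in WT8, 19.5 in WT9, 16.8 in WT13, 19.99 in WT15, 20.5 in WT16 and 16.8 in WT17. cKO5 and cKO6 stood above all others, and the log2 fold change was 0.34 (SE 0.18; edgeR adjusted p = 0.333). Aldh1l1 had 4.36 CPM in cKO2, 3.92 in cKO4, 8.64 in cKO5, 3.51 in cKO6 and 2.75 in cKO7. In WT it had 4.93 CPM in WT8, 6.04 in WT9, 7.69 in WT13, 5.41 in WT15, 4.99 in WT16 and 6.46 in WT17. All cKO libraries but cKO5 lay below all WT libraries, and cKO5 lay above them all, at a log2 fold change of -0.35 (SE 0.32; edgeR adjusted p = 0.633). Acsbg1, an acyl-CoA synthetase, averaged 31.1 ± 3.87 CPM in cKO (SD, n = 5) and 27.6 ± 5.08 in WT (SD, n = 6). Its log2 fold change was 0.17 with all libraries and 0.36 (SE 0.16) against WT8, WT9 and WT15 (edgeR adjusted p = 0.362). The metal-binding Mt3 averaged 17.4 ± 4.86 CPM in cKO and 17.8 ± 2.69 in WT, and the lipase Pla2g7 averaged 13.004 ± 2.26 in cKO and 16.2 ± 5.21 in WT, with 24.9 CPM in WT13. Cbs, the first enzyme from homocysteine to cysteine, averaged 7.30 ± 2.56 CPM in cKO and 9.70 ± 3.57 in WT, with 16.1 CPM in WT17. The least abundant metabolic members were Dio2, which activates thyroid hormone, at 2.73 ± 0.54 CPM in cKO and 2.95 ± 1.53 in WT, and the fatty acid carrier Fabp7, at 1.73 ± 0.74 in cKO and 1.53 ± 0.73 in WT.

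Among the 4 surface receptors the genotypes did not overlap for F3, the tissue factor that starts coagulation (ENSMUSG00000028128, chromosome 3, 121723537 to 121735048, plus strand). It had 2.84 CPM in cKO2, 5.76 in cKO4, 8.43 in cKO5, 5.74 in cKO6 and 8.51 in cKO7, against 9.38 CPM in WT8, 12.3 in WT9, 11.4 in WT13, 9.57 in WT15, 10.9 in WT16 and 12.1 in WT17. It was the 1 member of 32 (3.12%) without overlap, where 4.16% of all genes had none, 1.99% with cKO the lower group. F3 averaged 6.26 ± 2.35 CPM in cKO (SD, n = 5) and 11.0 ± 1.26 CPM in WT (SD, n = 6), a 1.75-fold lower level in cKO, but the log2 fold change of -0.81 (SE 0.26, 95% interval -1.36 to -0.26) did not pass (edgeR adjusted p = 0.0871). DESeq2 gave -0.81 with an adjusted p of 0.0419. The size was close to this without WT13, WT16 and WT17, at -0.74 (SE 0.31), and did not pass there (edgeR adjusted p = 0.31). Its counts were between 91 and 498 per library.

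Fgfr3, a receptor of fibroblast growth factors (ENSMUSG00000054252, chromosome 5, 33721674 to 33737068, plus strand), had 26.6 CPM in cKO2, 35.6 in cKO4, 29.2 in cKO5, 48.5 in cKO6 and 44.8 in cKO7. It had 41.2 CPM in WT8, 45.8 in WT9, 65.8 in WT13, 35.7 in WT15, 54.6 in WT16 and 92.9 in WT17. WT13, WT16 and WT17 lay above all cKO libraries while WT8, WT9 and WT15 fell within their range, as for Gfap. The log2 fold change was -0.60 (SE 0.24; edgeR adjusted p = 0.194) with all libraries and -0.15 (SE 0.17; edgeR adjusted p = 0.897) against WT8, WT9 and WT15. Of its merged exons 998 of 7158 bases overlap a gene on the opposite strand, and shorter stretches of Aldh1l1, Dio2, Pla2g7 and Ttyh1 do so too. The neurotensin receptor gene Ntsr2 averaged 40.2 ± 5.20 CPM in cKO (SD, n = 5) and 44.0 ± 4.66 in WT (SD, n = 6). Gpr37l1, a receptor reported to respond to prosaposin, averaged 50.5 ± 11.2 CPM in cKO and 50.2 ± 4.47 in WT, with 30.9 CPM in cKO6.

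The secreted and matrix genes had negative log2 fold changes for all 6 members tested, from -0.52 to -0.02, where 51.6% of all genes were negative, and none passed. Against WT8, WT9 and WT15 the direction turned for 5 of the 6, and their median was 0.056. Bcan, the brevican core protein of perineuronal matrix (chromosome 3, 87987531 to 88000230, minus strand), had 38.9 CPM in cKO2, 30.3 in cKO4, 34.0 in cKO5, 35.8 in cKO6 and 36.3 in cKO7. It had 31.4 CPM in WT8, 39.4 in WT9, 68.3 in WT13, 31.5 in WT15, 45.9 in WT16 and 86.1 in WT17. The cKO libraries were close to one another and the WT libraries spread widely, with WT17 and WT13 at the top. The log2 fold change was -0.52 (SE 0.24; edgeR adjusted p = 0.265) with all libraries and 0.03 against WT8, WT9 and WT15 (edgeR adjusted p = 0.987). Itih3, a heavy chain that binds hyaluronan, averaged 21.8 ± 5.78 CPM in cKO (SD, n = 5) and 31.0 ± 14.3 in WT (SD, n = 6), with 37.8, 33.6 and 55.1 CPM in WT13, WT16 and WT17. S100b had 172 CPM in cKO2, 169.7 in cKO4, 187 in cKO5, 179.9 in cKO6 and 174 in cKO7. In WT it had 190.1 CPM in WT8, 182 in WT9, 192 in WT13, 199 in WT15, 147 in WT16 and 168 in WT17. Its genotypes overlapped, at a log2 fold change of -0.02 (SE 0.08; edgeR adjusted p = 0.932). Agt, angiotensinogen, averaged 33.6 ± 3.68 CPM in cKO and 38.2 ± 8.23 in WT. The chaperone Clu averaged 50.9 ± 7.08 in cKO and 52.1 ± 8.76 in WT, and the serine protease Htra1 averaged 27.3 ± 6.37 in cKO and 28.0 ± 5.67 in WT. The remaining members, Ndrg2 and the actin-associated Fam107a, had log2 fold changes of -0.14 and 0.15.

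**Figure D3:**
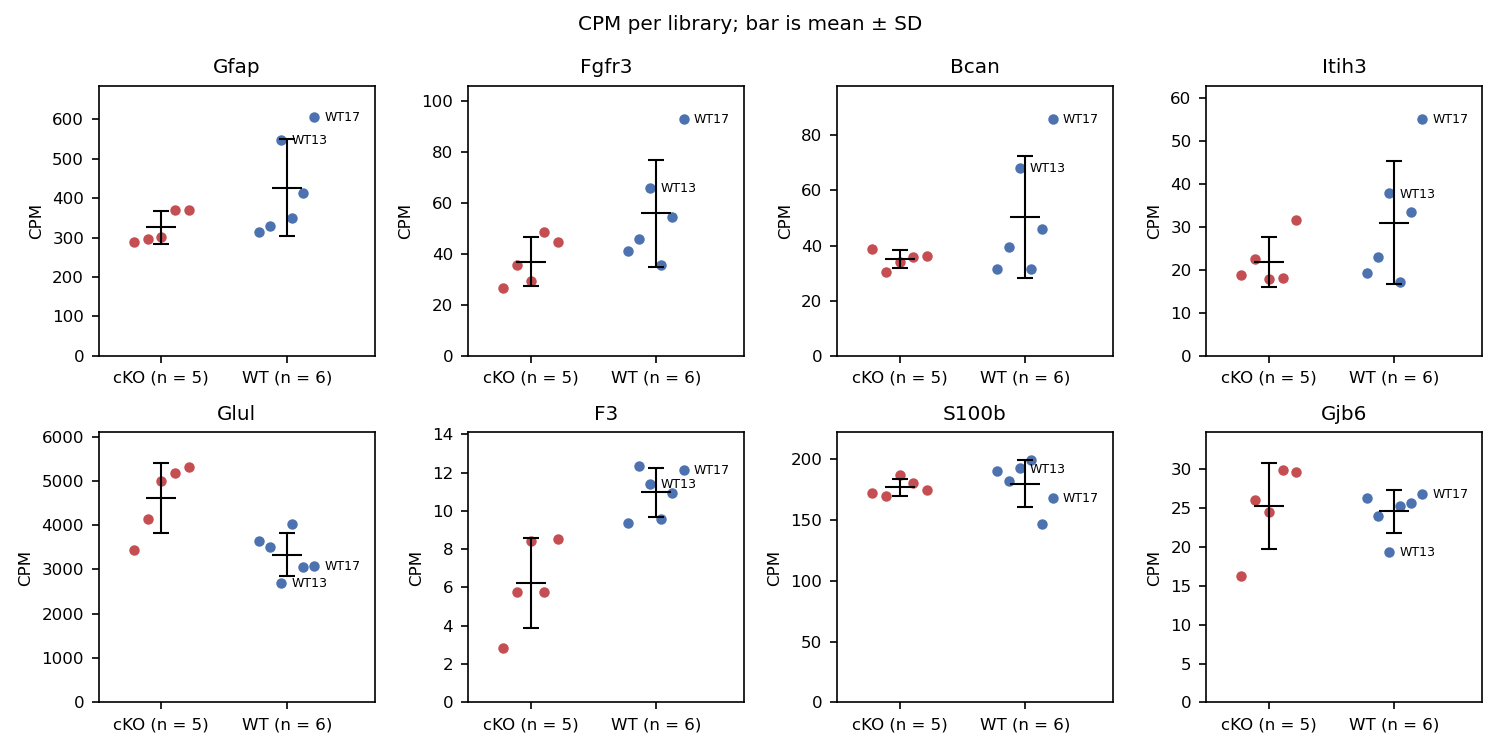
CPM per library of 8 genes, cKO left of WT, 1 point per library in the order of the replicate numbers, with mean and SD bars and WT13 and WT17 named. Gfap, Fgfr3, Bcan and Itih3 are highest in WT17 and WT13, Glul is lowest in WT13 (2688 CPM), F3 shows no overlap, S100b is flat and Gjb6 is low in cKO2 and WT13.

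Many of the members were high in the same libraries, WT13 and WT17. WT17 was the highest of the 11 libraries for 11 of 32 members (34.4%, against 16.1% of all genes tested), and WT13 for 8 (25.0%, against 15.7%). Within the WT group WT13 and WT17 were the highest pair for 19 members (59.4%, against 15.5% of all genes). With WT16 they were the highest 3 for 10 members (31.2%, against 12.4%). As log2 CPM minus the mean of the genotype, WT13 lay above 0 for 28 of 32 members and WT17 for 29, where 48.7% and 53.5% of all genes did. The median deviation over members was 0.29 in WT13, 0.21 in WT17, -0.002 in WT16, -0.08 in WT15, -0.14 in WT9 and -0.21 in WT8. The cKO libraries ran from -0.17 in cKO2 to 0.14 in cKO7. WT13 and WT17 were singled out after their values were seen, and these counts describe the 11 libraries.

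**Figure D4:**
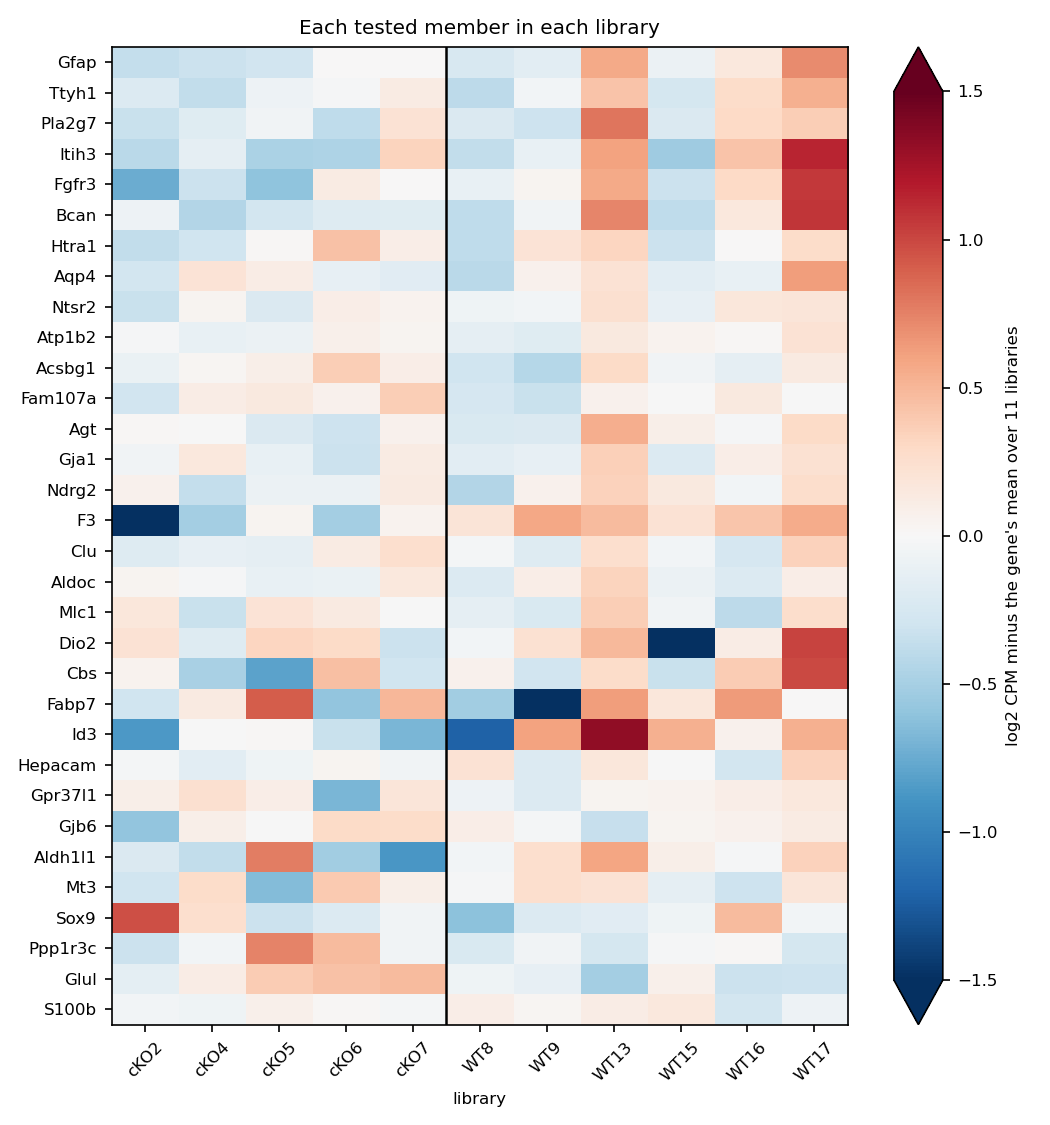
Log2 CPM of each of the 32 genes tested minus its mean over all 11 libraries, cKO libraries left of the line and WT libraries right of it, with rows ordered by agreement with the other genes. The columns WT13 and WT17 are mostly red and the last rows, Sox9, Ppp1r3c, Glul and S100b, do not follow them.

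Spearman's rho between members, over the 11 deviations from the genotype means, had a median of 0.28 over 496 pairs, and 76.8% of pairs were positive. Without WT13 the median was 0.21 and 74.6% were positive. WT17, in which many members were also high, was kept there, so the agreement without both libraries is not shown. No such values for other pairs of genes are given. The members share libraries and depth, so these values describe the set and carry no test. Gfap and Ttyh1 followed the mean of the other members most closely (rho 0.93 each), followed by Pla2g7 (0.84), Itih3 (0.81), Fgfr3 (0.80) and Bcan (0.78). At the other end S100b (-0.27), Glul (-0.19), Ppp1r3c (-0.08) and Sox9 (-0.02) did not follow it, nor closely did Aldh1l1 (0.13), Mt3 (0.13) or Gjb6 (0.22). Against the mean of the microglial markers Glul, Ppp1r3c and S100b had positive rho (0.55, 0.56 and 0.51). The other 29 members had negative values, down to -0.95 for Itih3. Against the mean of the neuronal markers rho ran from -0.47 for S100b to 0.93 for Itih3. Ttyh1 and Pla2g7 had 0.88 each and Gfap 0.85, while Glul (-0.34) and Ppp1r3c (-0.21) were negative beside S100b. Against the oligodendrocyte markers it ran from -0.15 for Sox9 to 0.91 for Gfap, with Itih3 at 0.68.

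Summed without Glul, the members had 1798 CPM in cKO2, 1804 in cKO4, 1836 in cKO5, 1988 in cKO6 and 2049 in cKO7. They had 1774 CPM in WT8, 1842 in WT9, 2454 in WT13, 1922 in WT15, 1998 in WT16 and 2552 in WT17. WT13 and WT17 lay above the other 9 libraries, and WT8, WT9, WT15 and WT16 lay at 1774 to 1998 CPM beside the cKO range of 1798 to 2049. With Glul the sum was 5247 to 7352 CPM in cKO and 5052 to 5940 CPM in WT, and it took between 0.506 and 0.715% of the counts in cKO libraries and between 0.531 and 0.603% in WT libraries. The summed markers of several other cell types were also highest in WT13 and WT17, those of fibroblasts not. The 18 neuronal markers summed to 1495 to 1745 CPM in cKO, and in WT to 2804 in WT13, 3263 in WT17, 2298 in WT16 and 1541 to 1805 CPM in the others. That sum rested mainly on Nefl, Nefm and Nefh, at 491, 509 and 937 CPM in WT13. Over the 18 genes the median deviation from the genotype mean was 0.31 in WT13 and 0.45 in WT17. Not all followed: Stmn2 was lowest of the 11 libraries in WT13, at 39.3 CPM. The oligodendrocyte markers summed to 4953 to 5708 CPM in cKO, and in WT to 5812 in WT13, 6378 in WT17 and 4894 to 5209 CPM in the others. Their sum rested mainly on Mbp, at 3462 CPM in WT13, and the median deviation was 0.25 in WT13 and 0.36 in WT17. Endothelial markers summed to 44.0 to 54.8 CPM in cKO, and in WT to 156 in WT13, 93.0 in WT17 and 51.2 to 65.6 CPM in the others. Ependymal markers summed to 17.1 to 22.5 CPM in cKO, and in WT to 52.5 in WT13, 42.7 in WT17 and 19.3 to 30.2 CPM in the others. The ependymal sum rested mainly on Foxj1 and Sox2, and over the 6 genes tested the median deviation from the genotype mean was -0.62 in WT13 and 0.69 in WT17. Pericyte markers summed to 16.1 to 39.2 CPM in cKO, and in WT to 100.4 in WT13, 74.7 in WT17 and 21.9 to 37.3 CPM in the others. Markers of oligodendrocyte precursors summed to 136 to 172 CPM in cKO, and in WT to 235 in WT13, 217 in WT17 and 159 to 179 CPM in the others. Fibroblast markers summed to 76.0 to 153 CPM in cKO, and in WT to 70.1 CPM in WT13, the lowest of the 11 libraries, to 181 in WT17, the highest, and 90.1 to 126 CPM in the others. Microglial markers ran the other way, with WT13 and WT17 the lowest of the 11. The part of these other cell types in the members' differences was not tested.

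**Figure D5:**
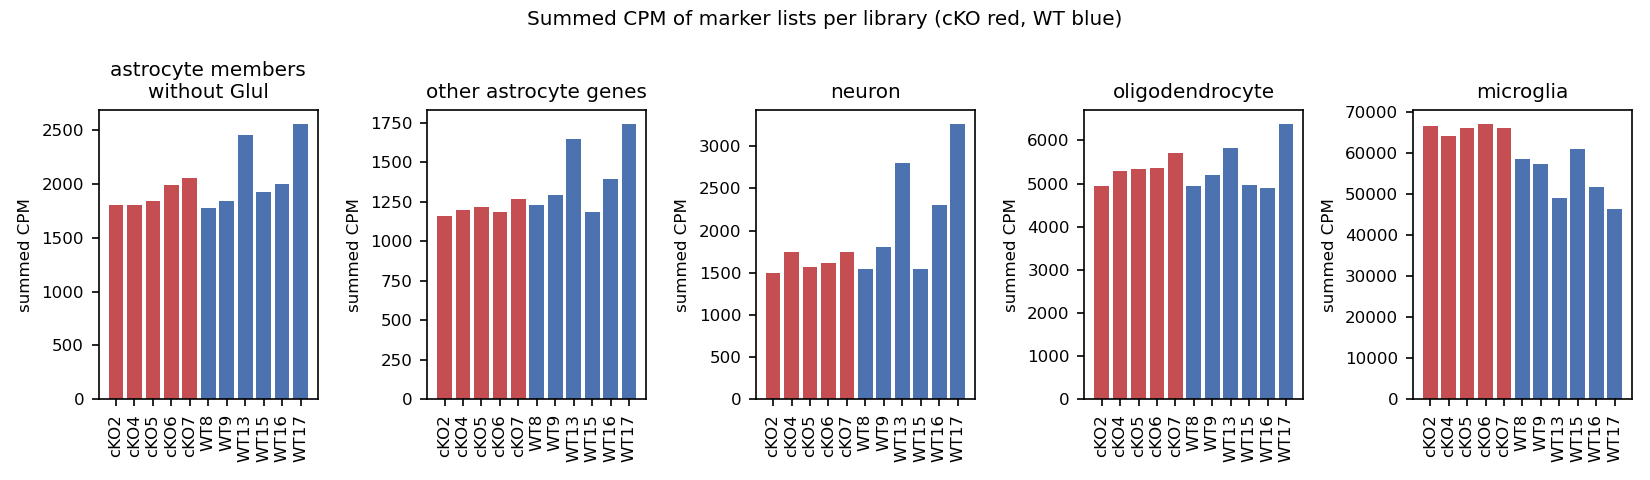
Summed CPM per library of the 33 genes without Glul and of 4 marker lists, cKO libraries in red left of WT libraries in blue. Astrocyte, neuron and oligodendrocyte sums are highest in WT13 and WT17, where the microglial sum is lowest.

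A second list of 35 astrocyte genes, chosen beside the members, also had its highest sums in WT17 and WT13. In edgeR 2 of its 34 tested genes passed, both lower in cKO, while DESeq2 passed 1 higher and 4 lower and limma voom 1 lower. The unadjusted p in edgeR was under 0.05 for 13 of the 34, where it was for 18.3% of all genes. Against WT8, WT9 and WT15 it was under 0.05 for 3 of the 34, and for 11.5% of all genes. Of the 34, 25 had a negative and 9 a positive log2 fold change. Its median log2 fold change was -0.28 with all libraries and -0.05 against WT8, WT9 and WT15. Its sum was 1158 to 1271 CPM in cKO against 1185 to 1743 CPM in WT. The genes past the threshold in edgeR were Lfng and Atp13a4. Lfng, a sugar transferase that modifies Notch receptors, had 47.1 CPM in cKO2, 42.7 in cKO4, 49.4 in cKO5, 46.2 in cKO6 and 52.5 in cKO7, and between 68.4 and 80.3 CPM in WT with a median of 76.5. No cKO library reached the WT range, WT13 and WT17 did not stand out, and the log2 fold change was -0.67 (SE 0.10) with all libraries and -0.72 against WT8, WT9 and WT15, past the threshold in both (edgeR adjusted p = 0.000114 and 0.000149). Atp13a4, a transport ATPase, fell at a log2 fold change of -1.82 (SE 0.49; edgeR adjusted p = 0.0342), and did not pass against WT8, WT9 and WT15 (-1.15; edgeR adjusted p = 0.57).

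Of 26 genes that reactive astrocytes raise, 19 could be tested, and 2 had no count in any library. Nes, the intermediate filament nestin, rose (log2 fold change 0.60, SE 0.14; edgeR adjusted p = 0.0139), and S100a10, an annexin partner, fell (-1.13, SE 0.17; edgeR adjusted p = 0.000274). Both also passed against WT8, WT9 and WT15, Nes at 0.71 and S100a10 at -1.34 (edgeR adjusted p = 0.0055 and 4.68e-06). Among the WT libraries S100a10 was lowest in WT17 and WT13, at 19.4 and 23.6 CPM. The median over the 19 was 0.04. The reactive list's sum was 293 to 345 CPM in cKO and 282 to 317 CPM in WT and did not single out WT13 or WT17, at 282 and 292 CPM. That sum rested mainly on Ggta1, Ugt1a6a and Nes, at 94.3, 63.3 and 43.8 CPM in WT13. Over the 19 genes the median deviation from the genotype mean was 0.25 in WT17, the highest of any library, and 0.04 in WT13. From the mean over all libraries it was 0.09 in WT17, and higher in cKO4, cKO7 and WT16. Among the microglial markers 9 of 15 tested were higher in cKO and none lower, with a median of 0.33, or 6 of 15 and a median of 0.19 against WT8, WT9 and WT15. None of the 18 neuronal or 14 oligodendrocyte genes tested passed in edgeR, with unadjusted p under 0.05 for 5 and 2 of them; DESeq2 passed 2 neuronal genes and 1 oligodendrocyte gene, all lower in cKO, and limma voom none. The neuronal median was -0.32 with all libraries and 0.01 against WT8, WT9 and WT15. Of the 11 endothelial genes Pecam1 and Kdr were lower in cKO, at a list median of -0.94 with all libraries and -0.09 against WT8, WT9 and WT15, and of the 9 genes of oligodendrocyte precursors Cspg4 was lower (edgeR adjusted p = 0.0174, 0.0466 and 0.0422). Against WT8, WT9 and WT15 these 3 did not pass (edgeR adjusted p = 0.0669, 0.568 and 0.482). Of the pericyte, fibroblast and ependymal lists 6 genes each were tested and none passed, with unadjusted p under 0.05 for 2 ependymal genes and for none of the pericyte or fibroblast genes; DESeq2 passed 1 ependymal gene, lower in cKO, and limma voom none of the 18.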

How the data were processed

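RNA bound to tagged microglial ribosomes was sequenced from 11 spinal cord samples, 5 cKO and 6 WT. Values in the deposited table are unnormalized read counts for 39017 Ensembl genes. Per the submitters' processing notes, bcl2fastq 2.17, FastQC, Trimmomatic and the build mm10 were used; the aligner, counter, strand setting and annotation were not given in the sources used here. Symbols were matched for 37607 identifiers (96.4%). Between 73.5 and 83.9% of counts from 1 to 200 were even, so both mates of a pair may have been counted.

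Differences were tested with edgeR 4.0.16 under R 4.3.3, using filterByExpr (minimum count 10, minimum total 15), TMM factors (0.956 to 1.07), and a robust quasi-likelihood F test with genotype as the only term, with Benjamini-Hochberg adjustment over 16025 genes and a threshold of 0.05. Log2 CPM used a prior count of 2. Alternatives used DESeq2 1.42.0 and limma 3.58.1. The edgeR procedure was also run on simulated counts, with planted changes larger than those of the members and no library differences shared between genes. That run therefore does not bear on changes as small as the members' or on libraries such as WT13 and WT17. Exon lengths and coordinates came from GENCODE for GRCm38, the same assembly as mm10, and promoter windows from RefSeq.

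Values in every cKO library, with each WT library or the lowest, median and highest of WT, are given for Gfap, Aqp4, Aldh1l1, Gja1 and Sox9, the 5 members highest per kb, the 3 most positive and 3 most negative log2 fold changes, and members past the threshold. Other lists name at most 3 genes, by smallest p among those past the threshold. The members and lists were chosen with earlier results of these data known. Bcan and Itih3 were given in more detail after their values were seen.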

Additional observations from a re-analysis of the deposited data

Results flagged for a closer look

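Of 64 groups of log2 CPM values (32 members in 2 genotypes), 3 held a library far from the others by Dixon's criterion, which flags about 1 group in 20 by chance. Gjb6 was low in WT13, at 4.28, where the next lowest WT library had 4.59 (gap over range 0.658). Dio2 was low in WT15, at -0.72, where the next had 1.36 (0.665). Gpr37l1 was low in cKO6, at 4.95, where the next cKO library had 5.73 (0.832).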

How the results depend on the processing

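Each of 32 members was recomputed under 18 alternatives, giving 576 values, of which 518 kept their direction and side of the threshold, 50 changed sign, 7 lost a call and 1 gained one. The 7 were Glul and the 1 was F3, both described above. A sign change occurred for 21 members. Without WT13, WT16 and WT17 it was 15 members: Aqp4 at 0.11, Gja1 at 0.12, Gjb6 at -0.0015, Agt at 0.025, Ntsr2 at 0.0091, Atp1b2 at 0.062, Clu at 0.077, Aldoc at 0.052, Dio2 at 0.42, Cbs at 0.016, Pla2g7 at 0.11, Htra1 at 0.14, Ttyh1 at 0.12, Bcan at 0.035 and Itih3 at 0.13. The median of the members was then 0.070, members past the threshold 0 and genes higher in cKO 164. With library totals Gjb6 was at -0.042, Mlc1 at -0.041 and Gpr37l1 at -0.077, members past the threshold were 0, and 601 genes were lower and 203 higher in cKO; with limma voom Dio2 was at 0.036 and Gpr37l1 at -0.0056. DESeq2 passed 1162 genes, 479 higher and 683 lower, and 2 members. Leaving out 1 library at a time, all genes past the threshold ran from 437 (without cKO5; 438 without cKO6) to 945 (without WT15), those higher from 170 to 388 and lower from 264 to 557, members from 0 to 1, and the members' median from -0.13 to -0.025. Over the same omissions the log2 fold change ran from -0.00011 to 0.41 for Sox9, -0.068 to 0.33 for Fabp7, -0.33 to 0.13 for Dio2, -0.20 to 0.022 for Aqp4, -0.17 to 0.044 for Htra1, -0.15 to 0.092 for Mt3, -0.11 to 0.039 for Clu, -0.066 to 0.051 for Aldoc, -0.076 to 0.0066 for S100b, -0.026 to 0.16 for Gjb6, -0.017 to 0.14 for Mlc1 and -0.054 to 0.14 for Gpr37l1. The cause of these changes was not tested. No paired analysis was possible because the genotypes share no replicate numbers. Depth limits the members with the lowest counts in any library: Chrdl1 (0), Fabp7 (16), Dio2 (18), Id3 (32), F3 (91), Aldh1l1 (96), Sox9 (123) and Cbs (132).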
